A study of Mus musculus with 4 samples.

Results

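Astrocytes are the star-shaped glial cells of the central nervous system. They clear glutamate from synapses, return it to neurons as glutamine, and regulate water and potassium around vessels and synapses. Peripheral nerve holds Schwann cells in their place, so transcripts of astrocytes in an ear extract mark central nervous tissue more closely than nerve in general, although several of the genes are also used by other cells. The genes described here were the 9 markers Gfap, Aqp4, Aldoc, Fabp7, Slc1a2, Slc1a3, S100b, Glul and Ntsr2. They were found on the arrays through the RefSeq accession of each probe, which gave 15 probes. These are 9 of the 17962 named genes tested, and 15 of the 31577 probes tested.

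The extracts came from ears of male BALB/c mice, 6 to 10 weeks old. Mice of the group labelled DEP inhaled diesel exhaust particles (DEPs), the carbon-based particles of diesel engine smoke, for 1 h on each of 5 days, and the animals were killed on day 14. The control group is labelled as untreated, with no further detail of what it inhaled. The study used 9 mice, and the number of mice behind each extract is not given in the sources used here. The methods describe both the harvest of temporal bone areas around the middle ear and, for the arrays, RNA from dissected middle ears, and how much neighbouring tissue an extract held is not given. Each of 4 two-colour arrays held a DEP-labelled ear extract, marked with Cy5 (red), and a control-labelled ear extract, marked with Cy3 (green). No dyes were swapped, so a dye preference of a probe and an effect of exposure cannot be told apart. The labels call the arrays biological replicates without naming the animals, so the p-values measure the spread between these arrays.

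The direction of every ratio below rests on the source names in the sample labels, and ratios are given as DEP (the Cy5 channel) over control (the Cy3 channel). The study counts Slc1a2 among the genes raised by DEPs, which is opposite to the direction found here. All 4 arrays lay on 1 slide and were read in 1 scan. Between 60.5% and 70.0% of spots per channel and array were well above background, the software's own call of a measurable spot. A gene is called fully measured here where its brightest probe was so called in each channel of every array, which holds for 14286 genes and for all 9 markers. Across probes, which are not independent replicates, the log2 ratios of the arrays correlated unevenly, from r = 0.61 between arrays 1 and 2 to r = -0.22 between arrays 1 and 4. Fully measured were 7 of 10 genes of cochlear supporting cells and 10 of 10 of skeletal muscle, beside 14286 of all 17962 named genes tested. These counts do not tell how much of either tissue an extract held.

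Upstream sequences are shown for 4 genes, so that 3 of the markers whose mean ratio was lower past 2-fold can be set beside S100b, which was not. Each is the stretch of 250 bases before the gene's start, from RefSeq for build GRCm38.p6, written in the direction of the gene. Capitals mark matches on either strand to the letters TTCNNNGAA, the pattern bound by STAT factors, or TTGGCA, the core of sites bound by the NFI family, 2 factor families known for their part in astrocyte development.
Aldoc, chr11:78322823-78323072, plus strand: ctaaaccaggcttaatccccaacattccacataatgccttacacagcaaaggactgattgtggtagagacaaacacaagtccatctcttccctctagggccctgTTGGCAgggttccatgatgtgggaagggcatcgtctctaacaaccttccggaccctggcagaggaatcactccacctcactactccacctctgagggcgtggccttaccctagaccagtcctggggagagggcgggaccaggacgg
Slc1a3, chr15:8710808-8711057, minus strand: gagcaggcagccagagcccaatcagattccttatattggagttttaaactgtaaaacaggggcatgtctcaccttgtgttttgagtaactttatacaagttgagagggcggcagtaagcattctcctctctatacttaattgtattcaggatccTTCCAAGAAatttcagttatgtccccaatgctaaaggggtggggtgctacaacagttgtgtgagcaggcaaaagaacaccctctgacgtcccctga
Gfap, chr11:102897201-102897450, minus strand: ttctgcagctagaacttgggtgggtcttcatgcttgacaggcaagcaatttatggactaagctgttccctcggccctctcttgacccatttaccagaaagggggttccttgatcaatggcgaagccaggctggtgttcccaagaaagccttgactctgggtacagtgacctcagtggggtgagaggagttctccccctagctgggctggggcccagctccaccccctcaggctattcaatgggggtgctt
S100b, chr10:76253586-76253835, plus strand: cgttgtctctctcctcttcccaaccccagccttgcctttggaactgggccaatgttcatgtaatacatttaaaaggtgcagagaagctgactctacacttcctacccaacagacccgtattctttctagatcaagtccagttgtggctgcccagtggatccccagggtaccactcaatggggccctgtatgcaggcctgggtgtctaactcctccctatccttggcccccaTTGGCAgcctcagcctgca
The NFI core begins 146 bases before the start of Aldoc and 19 bases before that of S100b. Of the windows of the other markers in the table, that of Ntsr2 also holds the STAT pattern, and those of Fabp7 and Glul hold neither set of letters. The Slc1a2 window in the table lies inside the gene and is not described. The 4 windows printed are examples, chosen with the ratios and the matches known. RefSeq gives Aldoc another start further along the gene, and the window before that start, not printed here, holds 2 matches to the STAT pattern and no NFI core. The STAT pattern begins 96 bases before the start of Slc1a3, and neither set of letters occurs in this window of Gfap. Of 32851 upstream windows of this length in the table, 7.02% hold the STAT pattern and 12.3% the NFI core. A match is a description of the sequence, and the arrays carry no measurement of factor binding.

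Taken by its brightest probe, every one of the 9 markers had a mean log2 ratio below 0, against 44.7% of all genes tested. Their median was -1.14, where the median of all genes was 0.04. For 6 of the 9 (Slc1a2, Aldoc, Ntsr2, Fabp7, Slc1a3 and Gfap) the mean ratio was lower past 2-fold, the limit used in the study, and 4.06% of all genes and 2.76% of fully measured genes were. Past 2-fold in the other direction were 0 of the 9 and 2.15% of all genes. The number past 2-fold was 3 without array 1, and 1 (Ntsr2, at -1.29) when the background was corrected by normexp and the ratios were centred on their median. Under that setting Aldoc lay at -0.91, Slc1a3 at -0.72, Gfap at -0.74 and Aqp4 at -0.41. After Benjamini-Hochberg adjustment over all 31577 probes, limma's moderated test gave an adjusted p under 0.05 for 0 of the 15 probes, as for 0% of all probes. At an unadjusted p under 0.05 in either direction it found 2 of the 9 genes by their brightest probe (Aldoc and Slc1a2, both lower), beside 16.7% of all genes (7.5% lower). Of the 15 probes it found 4, all lower, beside 18.6% of all probes (8.96% lower), and 2 of the 4 are Slc1a2 probes that were well above background in the DEP channel on 0 arrays. An exact sign-flip test of 4 ratios cannot give a two-sided p below 0.125.

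The 4 arrays did not show the difference alike. The median log2 ratio of the 9 genes was -2.53 on array 1, -1.37 on array 2, -0.60 on array 3 and 0.35 on array 4. With the background corrected by normexp, the median on array 3 was -0.32 after loess and 0.05 after median centring. Its direction on that array thus depended on the processing. On array 1 the DEP extract was the lower one for 9 genes, on array 2 for 8 and on array 3 for 8, while on array 4 it was the higher one for 7. The limit of 2-fold was passed downwards by 8 genes on array 1, 6 on array 2, 1 on array 3 (Fabp7) and 0 on array 4, beside 9.95%, 6.56%, 4.28% and 4.31% of all genes on these arrays. Below 0 on arrays 1 to 3 and above 0 on array 4 were 6 of the 9 genes, a pattern held by 10.5% of fully measured genes. Only Slc1a2 and Aldoc were below 0 on all 4 arrays, 2 of 9 against 10.2% of all genes (16.2% of all genes were above 0 on all 4), and without array 4 there were 8, where 20.8% of fully measured genes were below 0 on arrays 1 to 3.

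**Figure D1:**
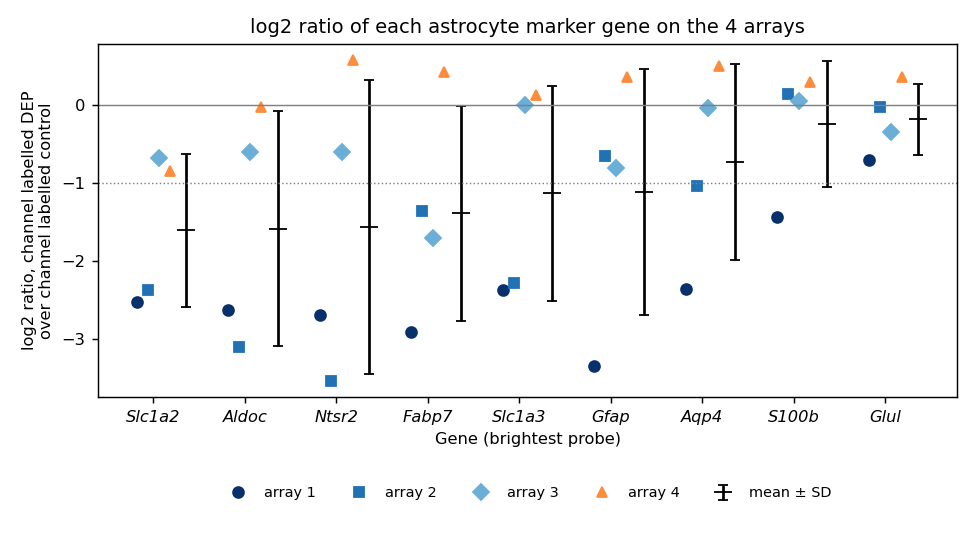
The log2 ratio (vertical axis, DEP over control) of the brightest probe of each of the 9 genes (horizontal axis), with 1 point per array and the mean with its SD over 4 arrays at the right of each gene; the dotted line marks 2-fold lower. The lowest point is that of array 1 for 7 genes and of array 2 for Aldoc and Ntsr2, and array 4 lies above 0 for 7 genes.

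The genes of glutamate uptake come first. Slc1a2 encodes GLT-1, the main glutamate transporter of astrocytes. Its brightest probe (A_55_P1955412) had a processed signal of 106, 58.9, 60.6 and 43.1 in the DEP channel on arrays 1 to 4, and of 616, 306, 97.1 and 77.6 in the control channel. The control signals of arrays 1 and 2 stood far above the other values, and on every array the DEP extract was the lower of the pair. Averaged over the arrays, its log2 ratio was -1.61 ± 0.98 (SD, n = 4; limma standard error 0.39, adjusted p = 0.167). With the background corrected by normexp it was -0.94, short of 2-fold, both after loess and after median centring. Slc1a2 was the single marker whose DEP signals all lay below its control signals once the arrays were scaled to each other, as did those of 4.15% of fully measured genes.

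The 2 other probes for Slc1a2 target the accession NM_001077514. They were well above background in the control channel on arrays 1 and 2 and in the DEP channel on no array, so that no fold is given for them. On arrays 1 and 2 the control signals were 137 and 52.1 for A_55_P2136847, and 108 and 52.6 for A_55_P2392625. Their DEP signals were at most 19.6, and the p-values of these probes rest on spots not well above background.

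Slc1a3 encodes GLAST, the glutamate transporter of astrocytes and of the Bergmann glia of the cerebellum. In the DEP channel its signal was 1135, 956, 801 and 683 on arrays 1 to 4, and in the control channel it was 5897, 4669, 803 and 628. On arrays 1 and 2 the control extract was thus 5.20-fold and 4.88-fold above the DEP extract, while on arrays 3 and 4 the log2 ratios were -0.0046 and 0.12. The mean ratio was -1.14 ± 1.38 (SD, n = 4; standard error 0.55, adjusted p = 0.331), and it was -0.72 without array 1 and -0.75 without array 2.

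Glul encodes glutamine synthetase, which turns the glutamate taken up into glutamine and is also used in muscle and other tissues. Signals of 11859, 10846, 11213 and 9214 in the DEP channel stood beside 19467, 11077, 14276 and 7244 in the control channel. The channels crossed between arrays, and the mean log2 ratio of -0.19 ± 0.45 (SD, n = 4; standard error 0.20, adjusted p = 0.633) was smaller than the spread between arrays. Median centring after another background correction (normexp) turned it to 0.38, and it was -0.01 without array 1 and -0.36 without array 4.

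Of the structural and water-handling genes, Gfap encodes the intermediate filament protein by which astrocytes are usually recognised. The probe A_52_P52303 gave 195, 378, 287 and 226 in the DEP channel and 1985, 598, 503 and 177 in the control channel. On array 1 the control extract was 10.2-fold above the DEP extract, and the control extract of array 4 was the lowest of the 8 deposited values. With the arrays scaled to each other, the DEP extract of array 1 was lowest, at 7.17 in log2. The control extract of array 4 then stood at 7.69. The mean log2 ratio was -1.12 ± 1.58 (SD, n = 4; standard error 0.62, adjusted p = 0.383), and without array 1 it was -0.37.

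A second Gfap probe measured on all arrays, A_55_P2157250, targets the accession NM_010277 rather than NM_001131020. Its log2 ratios were -2.53, -0.01, 0.08 and 0.82 on arrays 1 to 4. Each lay above that of A_52_P52303 on the same array, and the mean of -0.41 ± 1.46 (SD, n = 4; adjusted p = 0.716) was smaller in size. The third probe, A_55_P2157245, was well above background in the DEP channel on 1 array and in the control channel on 2.

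Aqp4 encodes the water channel of astrocyte end-feet, which is also present in fast skeletal muscle fibres. For A_55_P2031939 the signals were 457, 587, 492 and 557 in the DEP channel and 2346, 1206, 509 and 395 in the control channel. As deposited, the DEP signals spanned a narrower range than the control signals, the lowest of which lay below every DEP signal. With the arrays scaled to each other, the DEP log2 signals ran from 8.40 to 9.36. Those of the control extracts then ran from 8.86 to 10.76, so the lowest lay inside the DEP range. The mean log2 ratio was -0.74 ± 1.25 (SD, n = 4; standard error 0.50, adjusted p = 0.458), and the other probe (A_55_P2000369) gave -0.87 (adjusted p = 0.321). The mean ratio of A_55_P2031939 was -0.20 without array 1 and -1.15 without array 4.

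Among the metabolic and lipid-binding genes, Aldoc encodes the brain form of the glycolytic enzyme aldolase, made by astrocytes and by bands of Purkinje cells. Its signal was 25313, 13600, 8217 and 5276 in the DEP channel, and 156704, 116636, 12460 and 5372 in the control channel. The 2 highest control extracts, those of arrays 1 and 2, were 6.19-fold and 8.58-fold above the DEP extract beside them, while both signals of array 4 were far lower and close to each other. The mean log2 ratio was -1.59 ± 1.50 (SD, n = 4; standard error 0.59, adjusted p = 0.259), with each array below 0 but array 4 only at -0.03.

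Fabp7 encodes the brain fatty acid-binding protein of radial glia, Bergmann glia and ensheathing glia. It had signals of 553, 1421, 1418 and 1609 in the DEP channel and of 4162, 3665, 4649 and 1207 in the control channel. Here array 3 went with arrays 1 and 2, at 3.28-fold, in contrast to Slc1a3 and Aldoc. The mean log2 ratio was -1.39 ± 1.38 (SD, n = 4; standard error 0.54, adjusted p = 0.27), and without array 1 it was -0.89.

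The last pair are a receptor and a calcium-binding protein. Ntsr2, a neurotensin receptor found mainly on astrocytes, had signals of 424, 118, 97.4 and 93.9 in the DEP channel and of 2747, 1366, 148 and 63.2 in the control channel. Its control extracts spanned the widest range of the 9 genes, and its largest difference, 11.6-fold, was on array 2. The mean log2 ratio was -1.57 ± 1.88 (SD, n = 4; standard error 0.74, adjusted p = 0.324), and the other probe (A_55_P1974527), which was not well above background in the control channel on array 4, had log2 ratios of -2.48, -3.35 and -0.40 on arrays 1 to 3. Without array 2 the mean of the brightest Ntsr2 probe was -0.91, short of 2-fold. S100b encodes a calcium-binding protein that is made by astrocytes and also by Schwann cells, chondrocytes and adipocytes. Signals of 22657, 36501, 32740 and 37188 in the DEP channel stood beside 61713, 33258, 31749 and 30559 in the control channel. Array 1 alone placed S100b lower in the DEP channel, with a log2 ratio of -1.45, and the other arrays lay between 0.04 and 0.28. Its mean was -0.25 ± 0.81 (SD, n = 4; standard error 0.33, adjusted p = 0.699), and it was 0.15 without array 1 and -0.42 without array 4.

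**Figure D2:**
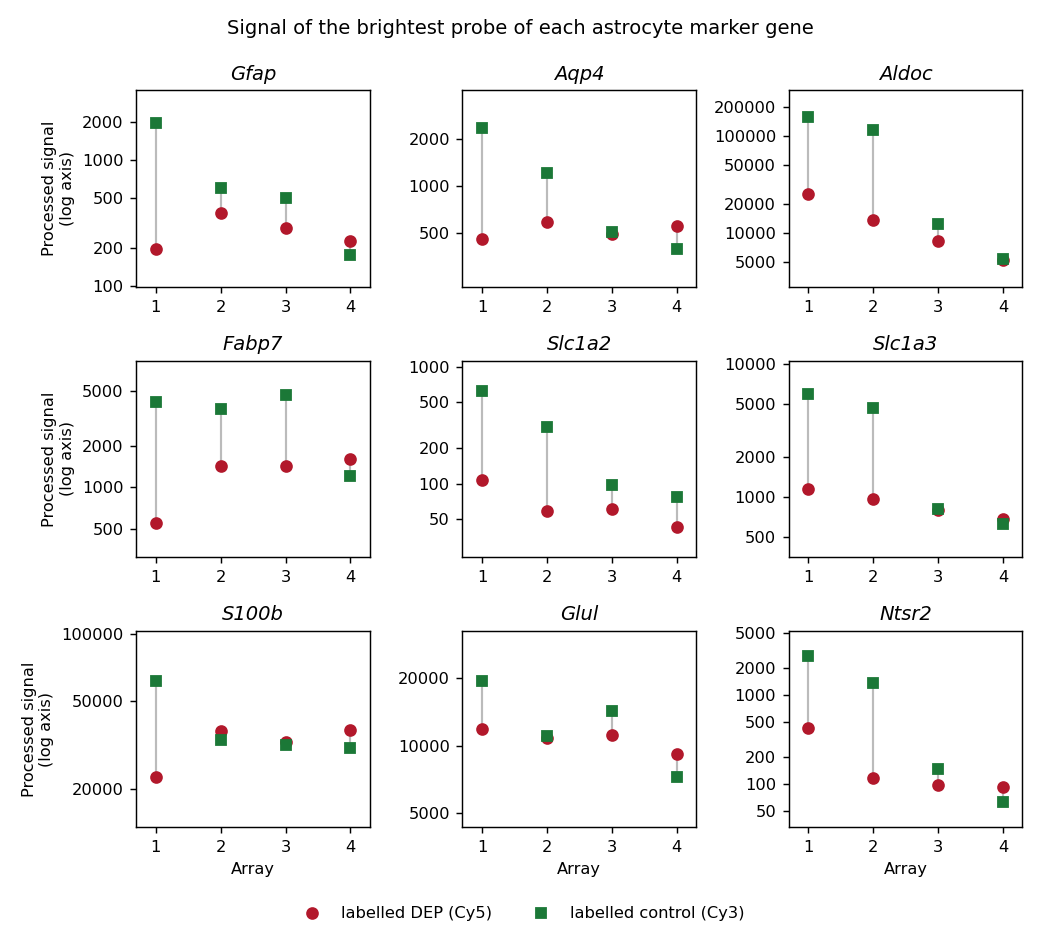
Processed signal (vertical axes, log scale, arbitrary scanner units) of the brightest probe of each gene on arrays 1 to 4 (horizontal axes), with circles for the DEP channel and squares for the control channel; grey lines join the 2 extracts of an array. The control square stands above the DEP circle for 9 genes on array 1 and 8 on array 2, and below it for 7 on array 4.

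On the deposited scale, which is not adjusted between arrays, the signals of the 2 channels overlapped for 9 of the 9 genes. The share of all genes with such an overlap was not counted, so this count does not set the 9 apart. With the arrays scaled to each other, the signal varied more between arrays in the control channel than in the DEP channel for 7 of the 9 genes, against 57.2% of fully measured genes. The median SD over arrays of the log2 signal was 1.15 in the control channel and 0.60 in the DEP channel, where fully measured genes had medians of 0.22 and 0.19. A range of more than 4-fold between control extracts was found for 5 of the 9 genes (Ntsr2, Aldoc, Gfap, Slc1a3 and Slc1a2) and for 4.4% of fully measured genes. Between DEP extracts it was found for 1 of the 9 (Fabp7) and for 3.84%. Slc1a3 had a range of 1.19-fold between DEP extracts and of 6.32-fold between control extracts. Ntsr2 ranged over 28.1-fold and Aldoc over 19.1-fold between control extracts. Fabp7 and S100b were the exceptions, with SDs of 1.02 and 0.60 in the DEP channel and of 0.81 and 0.21 in the control channel. Whether an extract held fewer astrocytes or less of these transcripts per cell cannot be told apart in bulk RNA.

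**Figure D3:**
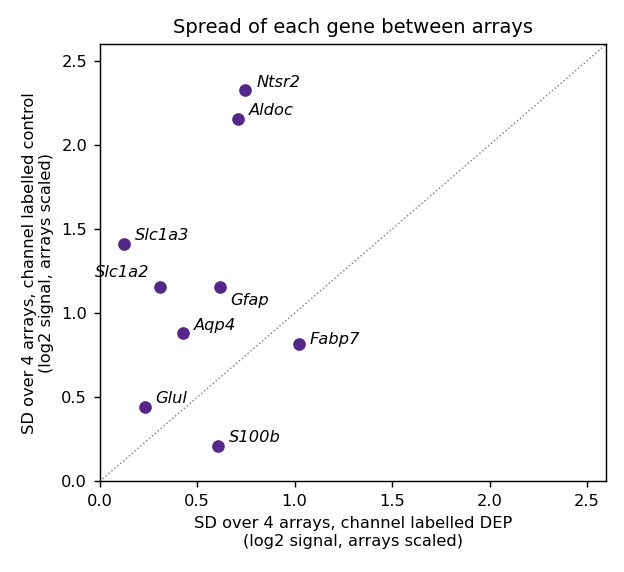
Each point is 1 of the 9 genes, with the SD over 4 arrays of its log2 signal in the DEP channel (horizontal axis) and in the control channel (vertical axis), after the arrays were scaled to each other; the dotted line marks equal SDs. Above the line lie 7 genes, with Ntsr2 and Aldoc highest, and Fabp7 and S100b lie below it.

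A broader list of 40 astrocyte genes, which shares no gene with the 9, had ratios nearer to 0. By mean ratio 34 of the 40 were lower in the DEP channel, beside 44.7% of all genes, and 6 were higher, with a median of -0.45. Lower past 2-fold were 9, among them Slc39a12, which was not fully measured, beside 4.06% of all genes. At an unadjusted p under 0.05 there were 8 of 40, all lower, beside 16.7% of all genes (7.5% lower), and 0 passed after limma's adjustment over all probes. The lowest fully measured genes were Mlc1, a membrane protein of astrocyte end-feet, at -1.86 ± 1.96 (SD, n = 4; adjusted p = 0.286) and Ttyh1, a chloride channel protein of glia, at -1.38 ± 1.13 (SD, n = 4; adjusted p = 0.227). Mlc1 had log2 ratios of -3.15, -3.86, -0.65 and 0.23 on arrays 1 to 4, the same order of arrays as Ntsr2. At the other end stood Etnppl at 0.56 ± 1.44 and Sox9, a transcription factor of glia and of cartilage, at 0.50 ± 0.66 (SD, n = 4; adjusted p = 0.613 and 0.381). By array, from 1 to 4, the median of these 40 lay at -0.96, -0.71, -0.18 and 0.12.

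Genes of reactive astrocytes, which injury or inflammation raises, were near 0 as a group. Of 16 genes, 5 were lower and 11 higher by mean ratio, with a median of 0.14, and 1 had an unadjusted p under 0.05 (Emp1, 0.46 ± 0.31; adjusted p = 0.236), beside 16.7% of all genes. Cp and Vim, the lowest, had mean log2 ratios of -0.16 and -0.08. Vim is an intermediate filament like Gfap but is made by many cell types, and its ratios were -0.30, -0.20, -0.27 and 0.45 on arrays 1 to 4. The highest was Tgm1, an enzyme that crosslinks proteins in epidermis, at 1.02 ± 1.42 (SD, n = 4; adjusted p = 0.379). Most genes of this list are also used by epithelial, stromal or immune cells.

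Among the Bergmann glia genes outside the 9, 6 of 7 were lower, beside 44.7% of all genes, with a median of -1.05. Dao, 1 of the 7, was not fully measured. An unadjusted p under 0.05 was found for 1 (Gpr37l1, -1.11 ± 0.83; adjusted p = 0.209), beside 16.7% of all genes (7.5% lower). Gpr37l1 is also in the list of 40 and is counted there too. Gria4, a glutamate receptor subunit, was the lowest fully measured one at -1.47 ± 1.71 (SD, n = 4; adjusted p = 0.315). Gdf10 at -0.14 and Hopx at 0.22 were the highest of those fully measured.

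The list of 20 glutamate and glutamine genes, in which Colgalt1 stands by error and has another function, was split. By mean ratio 14 were lower and 6 higher, with a median of -0.10, and 4 were lower and 0 higher past 2-fold, beside 4.06% and 2.15% of all genes. The unadjusted p was under 0.05 in 6 of 20 cases, 4 of them lower, beside 16.7% of all genes (7.5% lower). After limma's adjustment 0 passed. Of the 6, Slc1a7, Slc17a7 and Gad2 were not fully measured, and Slc17a7 and Gad2 are also among the 4 lower past 2-fold. The lowest fully measured genes were neuronal. Slc1a6, the glutamate transporter of Purkinje cells, had log2 ratios of -3.26, -4.65, -0.27 and 0.59, and Gad1, which makes the transmitter GABA, had -2.42, -4.74, -0.18 and 0.29. Their means of -1.90 ± 2.47 and -1.76 ± 2.31 (SD, n = 4; adjusted p = 0.35 and 0.354) were smaller than the spread between arrays. Slc1a4, a neutral amino acid transporter of the same gene family as Slc1a2, was higher on every array, with 0.65, 0.54, 0.37 and 0.45 and a mean of 0.50 ± 0.12 (SD, n = 4; adjusted p = 0.149).

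Close relatives of the 9 genes gave no common direction. Of 21 tested, 10 were lower and 11 higher, with a median of 0.11, and 1 had an unadjusted p under 0.05, beside 16.7% of all genes. That was Ntsr1, the other neurotensin receptor, which was lower on 4 of 4 arrays but well above background in the DEP channel on 1 array and in the control channel on 3. Aldoa, the aldolase of muscle and most tissues, had a mean log2 ratio of 0.22 where Aldoc had -1.59. Prph, an intermediate filament of peripheral neurons, was the lowest of those measured in full at -1.30 ± 1.39 (SD, n = 4; adjusted p = 0.294). Fabp5, the fatty acid-binding protein of epidermis, had 4.79, 0.73, 2.03 and -3.31 on arrays 1 to 4, so that it was higher on the 3 arrays where Fabp7 was lower and lower where Fabp7 was higher.

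Markers of other cell types were read beside these genes, and their counts of lower genes stand beside the 44.7% of all genes. All 14 neuron genes were lower by mean ratio, with a median of -1.03 and array medians of -2.13, -1.30, -0.88 and 0.27, and 7 of 14, all lower, had an unadjusted p under 0.05, beside 16.7% of all genes (7.5% lower). Syt1, a synaptic vesicle protein, was the lowest at -2.69 ± 1.62 (SD, n = 4; adjusted p = 0.164). For oligodendrocytes, the myelin-forming glia of the brain, 8 of 9 tested genes were lower, with a median of -0.50 and -1.41 on array 1, and 1 of 9 had an unadjusted p under 0.05. Mag, an adhesion protein of myelin, lay at -0.92 ± 1.25, and Mbp, a myelin protein that Schwann cells also make, at 0.28 ± 0.14 (SD, n = 4; adjusted p = 0.369 and 0.27). Schwann cell genes had a median of -0.05, with 7 of 10 lower, and 0 of 10 had an unadjusted p under 0.05, which says little beside the 16.7% of all genes.

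Signals were also summed over each list, as deposited and without scaling between arrays. The summed signal of the 9 astrocyte genes ranged from 54890 to 64465 in the DEP channel and from 45725 to 255637 in the control channel. Aldoc, S100b and Glul made up most of these sums, and the last pair of these genes is also made by other cells. In the DEP channel Aldoc was highest and S100b lowest on array 1, so the narrow range of that sum does not mean that its genes were at like levels. For neurons the ranges were 32708 to 43711 and 33984 to 136144, and for oligodendrocytes 20131 to 22261 and 23303 to 93217. For each of the 3 lists the highest sum was that of the control extract of array 1 and the next that of the control extract of array 2. Schwann cell genes ranged from 26521 to 29957 and from 24147 to 39382. The control extract of array 1 was also the highest for the Schwann cell, muscle, cartilage, melanocyte and cochlear lists, and array 1 had the brightest median spot in both channels. Well above background in each channel of every array were 14 of 14 neuron genes, 9 of 9 oligodendrocyte genes and 9 of 10 Schwann cell genes. Of all named genes tested, 14286 of 17962 were so measured. The part of these cell types in the values of the 9 astrocyte genes was not tested.

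Other cells that make S100b, Aqp4 or Glul were followed as well. Skeletal muscle genes had a median of 0.14, with array medians of -0.66, -0.34, 0.75 and 0.82, and 8 of 10 were higher by mean ratio. Their summed signal ran from 300584 to 552892 in the DEP channel and from 235997 to 844604 in the control channel. Median ratios were 0.12 for genes of cartilage, 0.21 for adipocytes, 0.19 for melanocytes and 0.04 for cochlear supporting cells, and the arrays differed in direction. From array 1 to array 4 the median of the cochlear list was -0.71, 0.54, 0.41 and -0.13, and that of the adipocyte list was -0.06, 0.40, -0.03 and 0.85. Of these 5 lists 0 genes passed after limma's adjustment, and 6 of their genes had an unadjusted p under 0.05, where 16.7% of all genes did. In muscle the means of the 2 lowest and 2 highest fully measured genes were -0.24 for Actn3, -0.21 for Myh4, 0.33 for Acta1 and 0.35 for Tnnc2, each smaller than its SD. In the cochlear list they were -0.42 for Gjb6, -0.31 for Gjb2, 0.22 for Lgr5 and 0.27 for Epyc, likewise smaller than their SDs. Mitf of melanocytes at 0.53 ± 0.12, and Retn at 0.66 ± 0.49 and Cidec at 0.59 ± 0.42 of adipocytes, were higher on 4 of 4 arrays (SD, n = 4; adjusted p = 0.144, 0.224 and 0.224). The lowest of these lists were Slc45a2 at -0.40 and Dct at -0.26 in melanocytes, and Cfd at -0.15 and Fabp4 at -0.06 in adipocytes.

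**Figure D4:**
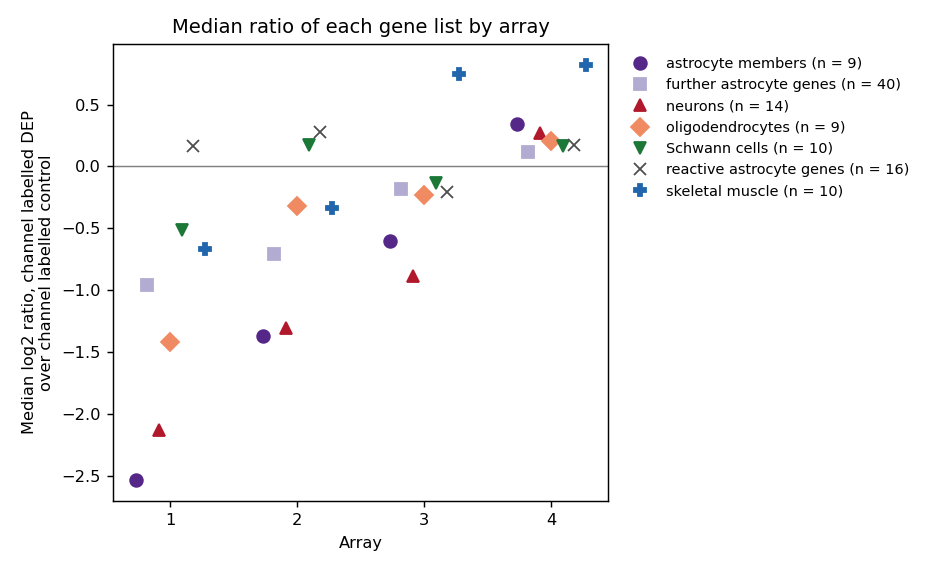
Median log2 ratio (vertical axis, DEP over control) of 7 gene lists on arrays 1 to 4 (horizontal axis), with 1 point per list and array and the number of genes tested in the key. The 9 astrocyte genes and the neuron genes are lowest on array 1, at -2.53 and -2.13, and lie above 0 on array 4.

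By the smallest distance over the 4 arrays to the median ratios of the 9 genes, the most similar genes outside them were Cplx1, Dzank1, Mtus2, Wdr17 and Slc4a4. Their distances, on the log2 scale, ran from 0.19 to 0.27. Cplx1 encodes a complexin of neuronal synapses, with ratios of -2.60, -1.43, -0.65 and 0.19. Slc4a4 encodes a sodium bicarbonate transporter of astrocytes, with -2.43, -1.59, -0.66 and 0.25, and is already in the broader astrocyte list. Cplx1, Dzank1, Mtus2 and Wdr17 are in none of the gene lists used here. Of the 9 genes themselves, Aqp4 lay nearest at 0.68 (rank 109 of 14280) and Glul farthest at 2.27 (rank 1662). The 9 genes set the median they are compared with, so their own ranks are partly fixed by that choice. All were ranked by likeness over 4 arrays alone.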

How the data were processed

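RNA of mouse ears was measured on 4 two-colour 4x44K arrays, 1 group of 4 replicates (DEP over control). The authors read them with Agilent Feature Extraction 10.10.1.1 (named in the submitters' processing notes) and deposited, per the file headers, processed intensities that are background-subtracted and dye-normalized within the array, and a log10 ratio of Cy5 over Cy3. A table of the same log10 ratios was deposited beside them; 0 columns had no sample. The methods state no test.

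Ratios were converted to log2. Control spots, flagged spots (164 to 274 per array) and spots without a ratio (6179 to 8558 of 43020) were left out, and a probe needed 3 arrays. Accessions were matched to RefSeq (GRCm38.p6, names and upstream sequences only; 27655 of 39429 probes named); the array design is annotated on mm9. A gene was read by its brightest probe. An intercept was tested with limma 3.58.1 (lmFit, eBayes; R 4.3.3), two-sided, with Benjamini-Hochberg adjustment. For signals between arrays, the channels were scaled with limma's Aquantile. The fit was tested on simulated data. Figures were drawn with matplotlib 3.10.9 under Python 3.11.15.

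The labels list both treatments under Cy5, so the source names were followed. Members and lists were chosen with earlier results of these data known. The genes named are the 9, the 2 highest and 2 lowest of each list measured in both channels on all arrays, and the 5 most similar; others (such as Aldoa and Colgalt1) were chosen after their values were seen. Some genes under this rule are not reported here. Normexp used median spot signals, as the files hold no mean signals. The alternatives were normexp with an offset of 50 and loess or median centring, the deposited table, filters on dim probes, keeping flagged spots, the mean of a gene's probes, centred ratios, an intensity trend, an unmoderated test, and leaving out each array.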

Additional observations from a re-analysis of the deposited data

Results flagged for a closer look

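Of 34 sets of 4 values of the members' probes, 3 held an array farther from the others than 4 samples allow at the 95% level, where chance gives about 1 in 20 sets. The log2 ratio of S100b on array 1 was -1.45, while the remaining arrays lay between 0.04 and 0.28. Its log2 signal in the DEP channel, with the arrays scaled to each other, stood at 14.06 on array 1, with the rest between 15.16 and 15.37. The scaled log2 signal of the brightest Ntsr2 probe (A_52_P266686) in the DEP channel stood at 8.29 on array 1, with the rest between 6.75 and 6.87.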

How the results depend on the processing

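Under the alternatives, 123 values of single members kept their direction and stayed without an adjusted p under 0.05, and 3 turned. With normexp and median centring S100b turned to 0.46 and Glul to 0.38, the genes lower past 2-fold went from 6 to 1, those lower on all arrays from 2 to 1, and the members' probes with an adjusted p under 0.05 from 0 to 2. Those 2 are the dim Slc1a2 probes, never above background in the DEP channel, and 4190 of 39429 probes passed under that setting, 538 of them lower. With 1 array left out, the genes past 2-fold ranged from 3 (without array 1) to 7, those lower on all arrays from 2 to 8 (without array 4), the median of the 9 genes from -1.61 to -0.72, and S100b from -0.42 to 0.15. The number of arrays limits the precision. Each ratio already compares the 2 extracts of an array, so the test is paired within arrays. No further pairing was possible because the arrays form 1 group.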
